A study of Mus musculus with 16 samples.

Results

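Mammary tumours of transgenic mice were ranked by how strongly they expressed milk protein genes, and the 6 milk-rich tumours were set against the 6 milk-poor ones. Of 16 arrays in all, 12 tumour arrays entered, those with a Krt8 signal above 100. Krt8 is a keratin of luminal epithelium, the layer of the gland that secretes milk. Each tumour was scored by the mean of log2(signal + 8) over 5 milk genes, Wap, Lalba, Csn1s1, Csn1s2b and Csn3, each read from its brightest probe set. The 6 highest scores made the milk-rich group and the 6 lowest the milk-poor group. These groups were therefore defined from the arrays themselves and are not groups of the study. The 5 genes and Krt8 chose the arrays, so their values are given as a description and they were left out of every test.

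The tumours came from mice on an FVB/N background that carried 1 of 2 variants of STAT5. STAT5ca is a constitutively active form and STAT5Δ750 is a form truncated at its C terminus. Total RNA of snap-frozen tumours was labelled with biotin and hybridised to Affymetrix Mouse Genome 430A 2.0 arrays, 1 array per tumour. Each group held 3 STAT5ca and 3 STAT5Δ750 tumours, so that the transgenes were balanced across the comparison. The milk-rich tumours were STAT5ca_123, STAT5ca_124, STAT5ca_213, STAT5Δ750_92, STAT5Δ750_174 and STAT5Δ750_178, named as in the labels. The milk-poor tumours were STAT5ca_159, STAT5ca_169, STAT5ca_171, STAT5Δ750_160, STAT5Δ750_165 and STAT5Δ750_254. The labels used here do not give the promoter that drove either transgene, any age, parity or reproductive stage, or how the tumours looked under the microscope. The number in a label was taken as 1 tumour, and nothing states that each came from a separate mouse, so p-values measure the spread between these arrays. The 3 other arrays in use were of normal mammary gland on the same background, at a stage the labels do not give, and serve as a reference level.

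Milk is made by luminal alveolar cells, which turn on casein, whey protein and lactose synthesis genes late in pregnancy. Prolactin, acting through its receptor and the kinase JAK2, phosphorylates STAT5, which binds the promoters of milk genes and activates them. The same cells raise fatty acid and triglyceride synthesis, since milk fat is secreted as droplets wrapped in membrane. Tumours of the mammary gland can keep or lose this secretory programme.

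The score ran from 11.27 in STAT5Δ750_178 to 7.80 in STAT5ca_159. It averaged 10.20 ± 0.84 (SD, n = 6) in the milk-rich and 8.24 ± 0.35 (SD, n = 6) in the milk-poor tumours. The last array inside the milk-rich group, STAT5Δ750_92, scored 8.83, and the first outside it, STAT5Δ750_254, scored 8.81, a gap of 0.02. The widest gap between neighbours, 1.17, lay 1 place higher, between STAT5Δ750_174 and STAT5Δ750_92. The split between these 2 arrays is therefore narrow, and where a named difference larger than its error moved by over 1.5 times with both arrays exchanged between the groups, that value is given beside it. Of the glands, gland 6 scored 11.94, gland 1 scored 8.93 and gland 4 scored 8.08, so the glands covered nearly the whole range of the tumours. The tumour left out, STAT5ca_177, had a Krt8 signal of 25.3 and a score of 5.22.

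Wap, the major whey protein of mouse milk, contributed most to the split. Its signal ran from 1013.1 to 9115.6 in the milk-rich and from 16.4 to 474 in the milk-poor tumours. On the log2(signal + 8) scale the milk-rich mean was higher by 5.19 for Wap, 2.52 for the casein Csn1s2b, 0.80 for the casein Csn1s1 and 0.53 for kappa-casein, Csn3. Lalba, the regulatory subunit of lactose synthase, differed by 0.78 with an SD of 2.17 in the milk-rich and 2.15 in the milk-poor tumours. Its signal was 3.4 in STAT5Δ750_92, a milk-rich tumour, and 667.5 in STAT5ca_169, a milk-poor one, so Lalba did not order the tumours as Wap did. Csn1s1 and Csn3 remained abundant in all 12 tumours, with lowest signals of 1069.9 and 2999.1. Milk-poor thus means low in some milk genes, chiefly Wap and Csn1s2b, and not free of milk gene signal. Krt8 itself ran from 3710.8 to 5375.9 and its group means differed by 0.02.

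**Figure D1:**
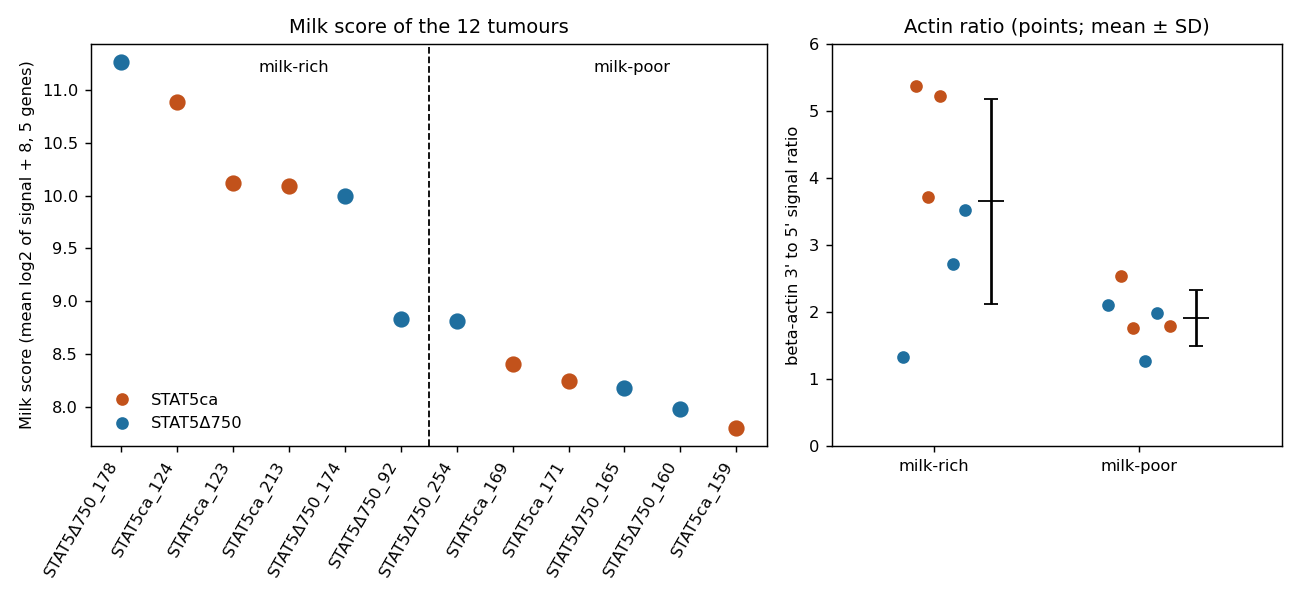
Left, milk score (mean log2 of signal + 8 over 5 genes) of the 12 tumours in order of score, with the split dashed; right, the beta-actin 3' to 5' signal ratio on each array, with mean ± SD per group (n = 6). Scores on either side of the split, 8.83 and 8.81, lie next to each other, and the actin ratio averages 3.65 in the milk-rich and 1.91 in the milk-poor tumours.

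Signs of RNA quality moved with the split. The beta-actin 3' to 5' ratio, which rises when RNA is degraded or copied incompletely, was 3.65 ± 1.53 (SD, n = 6) in the milk-rich and 1.91 ± 0.42 (SD, n = 6) in the milk-poor tumours. The exact two-sided permutation test gave p = 0.0238, or 0.0303 after Benjamini-Hochberg adjustment over 3 array measures. The Gapdh 3' to 5' ratio was 1.06 ± 0.34 against 0.805 ± 0.031 (SD, n = 6 each; exact permutation p = 0.0303, adjusted 0.0303). The median signal of an array was 68.4 ± 7.2 against 77.7 ± 4.2 (SD, n = 6 each; exact permutation p = 0.0260, adjusted 0.0303). The actin ratio of milk-rich arrays ran from 1.33, in STAT5Δ750_178, to 5.38 and that of milk-poor arrays from 1.27 to 2.53, so the groups overlapped. The part of RNA quality in the gene differences was not tested beyond the fits with the actin or the Gapdh ratio as a term and the fit without the 3 arrays of highest actin ratio. Marker genes of other tissues stood out on single arrays. Summed signals over 18 skeletal muscle genes were 31974 in STAT5Δ750_178 and 175 to 8249 in the other 11 tumours. Summed signals over 16 salivary gland genes were 68160 in STAT5Δ750_254, 18387 in STAT5ca_169 and 7797 in STAT5ca_171, all milk-poor, and 288 to 4087 elsewhere. Summed B cell genes were 16290 in STAT5Δ750_254 and 8694 in STAT5ca_124. In bulk tumours, fewer cells of a type and less RNA per cell cannot be told apart.

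Across 8709 genes, no gene passed the test of milk-rich against milk-poor tumours. With limma and Benjamini-Hochberg adjustment over all genes, 0 were higher (percent called 0) and 0 lower (0) at an adjusted p of 0.05, and the lowest adjusted p was 0.133. At an unadjusted p under 0.05, 1603 genes stood apart. Of these, 1429 were higher, 16.4% of all genes, and the others, 2% of all genes, were lower. With the actin ratio as a term 426 were higher and 245 lower, and with the Gapdh ratio 626 and 241. All 6 milk-rich arrays stood above all 6 milk-poor arrays for 142 genes (1.63%) and below them for 4 genes (0.0459%). These counts use signals scaled to a common array median, and on that scale the median difference over all genes was 0.23 (log2), with 72.7% of all genes above 0. On the signals as deposited the median difference was 0.05, and 634 genes were higher and 428 lower at unadjusted p under 0.05, so the share of higher genes among them was 59.7% in place of 89.1%. Quantile normalization gave 71.8%. Differences are therefore also given relative to the median of all genes, and none of the values below passed adjustment in the comparison of 6 with 6 tumours.

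**Figure D2:**
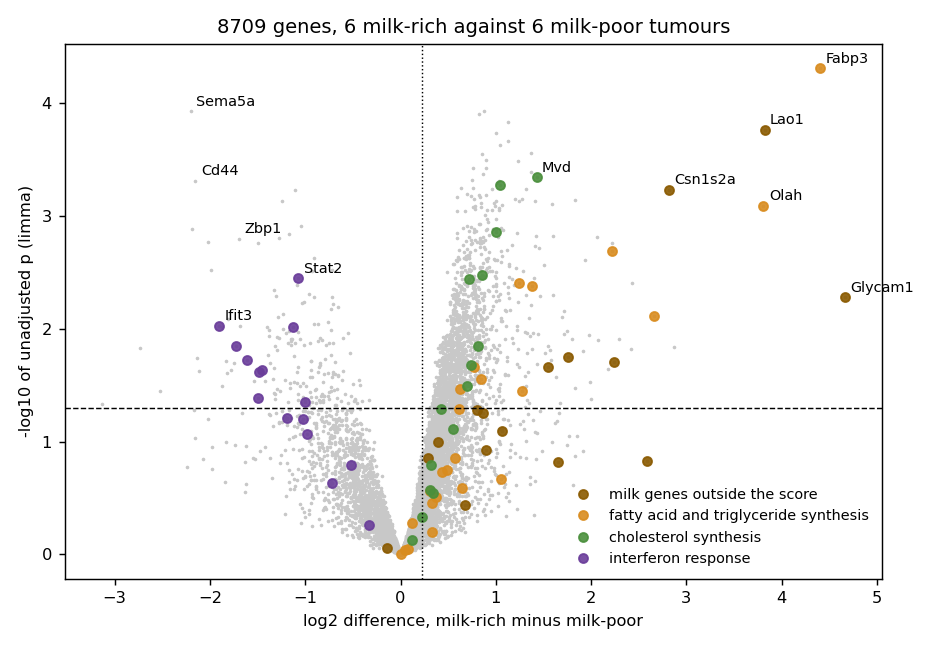
Each point is 1 of 8709 genes, with the log2 difference of milk-rich minus milk-poor tumours (6 arrays each) on the x axis and the -log10 of its unadjusted limma p on the y axis. The dotted line marks the median of all genes, 0.23, and the dashed line the threshold of 0.05. Milk and lipid genes such as Glycam1, Fabp3, Olah and Lao1 lie farthest right, and the interferon genes lie left of 0.

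The milk genes that the score did not use were mostly higher in the milk-rich tumours. Of 16 tested, 15 had a positive difference, against 72.7% of all genes, and 6 were higher at unadjusted p under 0.05, against 16.4%. None was lower, and their median was 1.31, which is 1.08 above the median of all genes. They are part of the same programme as the score genes, so their direction was not independent of the choice of tumours. Csn1s2a, a calcium-sensitive casein, had signals of 5420.0 to 10498.5 (median 6073) in the milk-rich and 310.6 to 6658.4 (median 990.8) in the milk-poor tumours. Only STAT5Δ750_254 reached the milk-rich range, and the difference was 2.82 ± 0.63 (SE; limma adjusted p = 0.133). Glycam1, a mucin-like glycoprotein secreted into milk, ran from 707.2 to 12073.8 (median 4892) against 1.1 to 4302.4 (median 345.2), a difference of 4.67 ± 1.40 (SE; limma adjusted p = 0.158). Its low values lay in the milk-poor STAT5ca tumours, at 1.1, 16.8 and 27.7, while the milk-poor STAT5Δ750 tumours stood between 662.6 and 4302.4. The difference was 8.44 within STAT5ca and 0.89 within STAT5Δ750 tumours.

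Csn2, beta-casein, was close to the same high level in most tumours. Its signal was 5867.4 to 9010.9 (median 6514) in the milk-rich and 896.4 to 8526.4 (median 5383) in the milk-poor tumours. The groups overlapped, and the difference of 0.87 ± 0.41 (SE; limma adjusted p = 0.278) was 0.44 without STAT5ca_169, the tumour with the lowest signal. Btn1a1, butyrophilin of the milk fat globule membrane, was higher by 1.76 ± 0.65 (SE; limma adjusted p = 0.199), with medians of 2695.0 and 1153, and its other probe sets differed by 0.49 and 1.09. Xdh, xanthine oxidoreductase, which partners butyrophilin in that membrane, was higher by 1.07 ± 0.56 (SE; limma adjusted p = 0.316), and its groups overlapped, at 347.7 to 2755.0 against 232.3 to 1737.4. The fit with the actin ratio as a term gave 1.77. Lao1, an L-amino acid oxidase secreted into milk, ran from 54.2 to 838.9 (median 472.9) against 3.2 to 139.0 (median 10.2). Its groups overlapped through STAT5Δ750_92 at 54.2 on the milk-rich side and STAT5Δ750_254 and STAT5Δ750_165 at 139.0 and 70.5 on the other. The difference was 3.82 ± 0.74 (SE; limma adjusted p = 0.133), and it was 4.80 (adjusted p = 0.00791) without the 2 arrays beside the split.

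The 250 bases before the start of 2 of these genes hold the palindrome TTCNNNGAA, the core of a STAT binding motif. Csn2 and Glycam1 are shown because they are the 2 of 14 milk genes outside the score with a promoter sequence in which this motif occurs. In capitals is the motif, TTCTTGGAA in Csn2, starting 93 bases before the gene's start, and TTCCCAGAA in Glycam1, starting 145 bases before it. The windows are chr5:87699426-87699675 and chr15:103565082-103565331, both on the minus strand, 5' to 3' as transcribed, from RefSeq on GRCm38.p6.
Csn2: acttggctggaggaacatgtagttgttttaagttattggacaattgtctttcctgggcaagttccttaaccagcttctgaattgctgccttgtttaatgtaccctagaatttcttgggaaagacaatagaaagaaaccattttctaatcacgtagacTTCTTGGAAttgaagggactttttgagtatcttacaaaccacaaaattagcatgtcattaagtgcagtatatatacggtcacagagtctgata
Glycam1: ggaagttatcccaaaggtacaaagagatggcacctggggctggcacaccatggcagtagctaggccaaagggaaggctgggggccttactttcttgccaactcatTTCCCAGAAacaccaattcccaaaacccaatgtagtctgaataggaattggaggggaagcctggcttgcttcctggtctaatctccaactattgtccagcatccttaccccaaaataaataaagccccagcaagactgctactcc
Of the 8709 genes tested, 7057 had such a sequence, and 409 of these, 5.8%, held the motif. It was found in 0 of 10 promoters of the 12 genes of smallest p in the higher direction, a set that holds neither Csn2 nor Glycam1. The match describes letters only and says nothing of binding.

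Genes of fatty acid and triglyceride synthesis were higher as a group. All 24 tested had a positive difference, against 72.7% of all genes, 10 were higher at unadjusted p under 0.05, against 16.4%, and 0 lower. The median was 0.62, which is 0.39 above that of all genes, and 0.22 above it with the actin ratio and 0.19 with the Gapdh ratio as a term. Fabp3, the fatty acid binding protein of lactating gland and of muscle, had the lowest p of all 8709 genes. Its signal ran from 335.0 to 7796.9 (median 1029) in the milk-rich and from 20.6 to 223.9 (median 42.2) in the milk-poor tumours. The groups did not overlap, and the difference was 4.41 ± 0.75 (SE; limma adjusted p = 0.133). Both transgenes showed it, with 5.40 in STAT5ca and 3.42 in STAT5Δ750 tumours. The highest signal came from STAT5Δ750_178, the array with the high muscle gene sum, and the difference without that array was 3.88. The glands stood between 1532.6 and 4675.3, above the milk-rich median.

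Olah, a thioesterase that releases medium-chain fatty acids from fatty acid synthase in the lactating gland, ran from 70.7 to 3064.1 (median 474.8) against 5.8 to 277.1 (median 19.3). Its highest milk-poor tumour was STAT5Δ750_254, and the difference was 3.81 ± 0.88 (SE; limma adjusted p = 0.133), or 3.28 without STAT5Δ750_178. Lpl, lipoprotein lipase, which takes up fatty acids from blood lipids, was at 596.7 to 5268.6 (median 1389) against 122.5 to 1161.2 (median 448.7). It was higher by 2.22 ± 0.58 (SE; limma adjusted p = 0.143) and by 1.91 without STAT5Δ750_178, and its other probe set by 1.19. Fasn, fatty acid synthase itself, was at 695.2 to 2888.9 (median 1663) against 496.0 to 1015.5 (median 709.3), higher by 1.24 ± 0.36 (SE; limma adjusted p = 0.153), and by 0.79 without the 3 arrays of highest actin ratio. All 3 genes overlapped between the groups.

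Fat cells express several of the same genes. The adipocyte list had 4 of 8 tested genes higher at unadjusted p under 0.05 and 0 lower, where 16.4% of all genes were higher and 2% lower. Its median was 0.62, which is 0.39 above that of all genes, and 0.20 above it with array quality weights. The brown fat list had 3 of 6 higher and 1 lower, with a median of 1.01. The brown fat median stood 0.78 above that of all genes, 0.40 without STAT5Δ750_178, 0.16 with array quality weights and 1.56 with the actin ratio as a term. Fabp3 and Cidea are members of the brown fat list too, and Lpl of the adipocyte list. Cd36, a fatty acid transporter, was higher by 2.00 ± 0.89 (SE; limma adjusted p = 0.256), and by 1.60 without STAT5Δ750_178, the array with its highest signal of 5129.0. Pnpla2, a triglyceride lipase, was higher by 1.0 ± 0.27 (limma adjusted p = 0.146). Cidea, a lipid droplet protein of brown fat and of the lactating gland, was at 11.2 to 907.2 (median 408.8) against 29.8 to 111.4 (median 32.2), with STAT5Δ750_92 the low milk-rich tumour. The difference was 2.24 ± 0.84 (SE; limma adjusted p = 0.204). Cox7a1, a respiratory subunit of muscle and brown fat, was higher by 1.10 ± 0.44 (limma adjusted p = 0.219). Dio2, the deiodinase of brown fat, was lower by 0.84 on the log2 scale, a difference of -0.84 ± 0.32 (limma adjusted p = 0.204), which was -0.37 with the 2 arrays beside the split exchanged. Without the 3 arrays of highest actin ratio Cidea was higher by 1.33 and Pnpla2 by 0.65. The summed signal of the adipocyte list was 14418 in STAT5Δ750_178 and 10771 in STAT5ca_124, and 1977 to 7071 in the other tumours. That of the brown fat list was 9186 in STAT5Δ750_178 and 166 to 2748 elsewhere. The part of fat tissue in these differences was not tested.

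The cholesterol synthesis genes were also higher. Of 15 tested, all had a positive difference, against 72.7% of all genes, 8 were higher at unadjusted p under 0.05, against 16.4%, and 0 lower. The median was 0.69, which is 0.46 above that of all genes. Mvd, mevalonate decarboxylase, was at 80.7 to 285.5 (median 200.5) against 49.4 to 103.9 (median 77.2). Only STAT5Δ750_174 among the milk-rich tumours lay in the milk-poor range, and the difference was 1.43 ± 0.31 (SE; limma adjusted p = 0.133). Cyp51, a sterol demethylase, did not overlap, at 237.0 to 475.1 (median 349.5) against 161.6 to 196.0 (median 183.8), a difference of 1.05 ± 0.23 (SE; limma adjusted p = 0.133). It was 0.59 with the 2 arrays beside the split exchanged and 0.52 with the actin ratio as a term, and the other Cyp51 probe set differed by 0.47. Lss, lanosterol synthase, was higher by 1.0 ± 0.25 (limma adjusted p = 0.138), and its groups did not overlap on the scaled signals. Mvk, mevalonate kinase, was higher by 0.86 ± 0.24 (limma adjusted p = 0.151), while its other probe set differed by -0.15. In the glands Cyp51 was at 103.1 to 125.8, below all 12 tumours. With the actin ratio as a term the list median stood 0.17 above that of all genes, and also 0.17 above it with the 2 arrays beside the split exchanged.

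Transport and lactose synthesis genes were higher in 7 of 19 tested at unadjusted p under 0.05, against 16.4% of all genes, and lower in 0, with a median of 0.56, which is 0.33 above that of all genes. Atp2c1 and Atp2c2 encode the calcium and manganese pumps of the secretory pathway. Atp2c2 ran from 71.8 to 609.0 (median 231.1) against 11 to 180.8 (median 74.1), overlapping, with a difference of 1.80 ± 0.62 (SE; limma adjusted p = 0.187). Atp2c1 was higher by 0.59 ± 0.18 (limma adjusted p = 0.160). B4galt1, the catalytic subunit of lactose synthase, was higher by 0.56 ± 0.23 (limma adjusted p = 0.239), with medians of 1264 and 886.3, and by 0.37 on the signals as deposited. Hk2, a hexokinase, was higher by 0.89 ± 0.31 (limma adjusted p = 0.188), by 1.42 with the actin ratio as a term and by 0.55 with the 2 arrays beside the split exchanged.

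Glycolysis and respiration genes were higher by smaller amounts. Of 18 glycolysis and hypoxia genes, 10 were higher at unadjusted p under 0.05, against 16.4% of all genes, and 0 lower, with a median of 0.41, 0.18 above that of all genes. Tpi1, triose phosphate isomerase, was higher by 0.59 ± 0.13 (SE; limma adjusted p = 0.133), at 4169.0 to 5807.9 (median 5159) against 3550.1 to 4330.6 (median 3616). Ndrg1, a gene induced by low oxygen, was higher by 1.37 ± 0.42 and Vegfa, a growth factor for blood vessels, by 1.11 ± 0.35 (SE; limma adjusted p = 0.162 and 0.171). The other Vegfa probe set was higher by 0.46. Egln3, a prolyl hydroxylase induced by low oxygen, was higher by 0.95 ± 0.32 (limma adjusted p = 0.182). With the 2 arrays beside the split exchanged, Tpi1 was higher by 0.35, Ndrg1 by 0.86, Vegfa by 0.54 and Egln3 by 0.29, and the list median stood at -0.001 relative to all genes. That median was 0.52 with the actin ratio as a term.

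Of 21 oxidative phosphorylation genes, all had a positive difference, against 72.7% of all genes, 11 were higher at unadjusted p under 0.05, against 16.4%, and 0 lower, with a median of 0.39, 0.16 above that of all genes. Cycs, cytochrome c, was at 2714.0 to 4233.0 (median 3210) against 1873.3 to 2522.1 (median 2169). Its groups did not overlap, and the difference was 0.76 ± 0.16 (SE; limma adjusted p = 0.133). Cox5a, Cyc1 and Uqcrc1, subunits of respiratory complexes, were higher by 0.53, 0.62 and 0.45 (limma adjusted p = 0.173, 0.186 and 0.191), and by 0.35, 0.43 and 0.26 on the signals as deposited. Of 18 genes of the amino acid response, 6 were higher and 0 lower at unadjusted p under 0.05, with a median of 0.39, 0.16 above that of all genes, or 0.41 above it with the actin ratio as a term. Aldh18a1, the first enzyme of proline synthesis, was at 661.7 to 1844.0 (median 1665) against 482.1 to 1121.6 (median 550.9), a difference of 1.32 ± 0.29 (SE; limma adjusted p = 0.133). STAT5Δ750_174 was the low milk-rich tumour, and without it the difference was 1.56 (limma adjusted p = 0.0394). Leaving out any other array did not bring Aldh18a1 past the threshold, with limma adjusted p of up to 0.249. The tRNA synthetases Nars, Iars and Gars were higher by 0.59, 0.65 and 0.55 (limma adjusted p = 0.138, 0.168 and 0.173). The other Nars probe set differed by only 0.07, and that of Iars by 0.52. With the 2 arrays beside the split exchanged, Nars was higher by 0.36 and Iars by 0.37.

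The 12 genes of smallest p in the higher direction were Fabp3, Lao1 and 10 genes outside the milk and lipid lists, named without having passed the test. Cluh, which binds mRNAs of mitochondrial proteins, was at 255.7 to 438.5 (median 342.0) against 128.5 to 225.8 (median 174.8), a difference of 1.13 ± 0.21 (SE; limma adjusted p = 0.133). Sfxn2, a mitochondrial membrane protein, was higher by 1.05 ± 0.21, at 93.9 to 129.4 against 32.1 to 90.8. Rad51ap1 and Rhno1 act in DNA repair and its checkpoint, and were higher by 1.12 ± 0.22 and 0.85 ± 0.17. The other Rad51ap1 probe sets were higher by 0.62, 0.44 and 0.95. Usf2, a transcription factor, was higher by 0.90 ± 0.19, at 291.7 to 399.9 against 151.2 to 249.2. Neither group of arrays overlapped the other for these 5 genes, in deposited or in scaled signals. Dusp11, an RNA phosphatase, was higher by 0.83 ± 0.15 and Ankrd28 by 0.88 ± 0.16, each without overlap. Ovgp1, an oviduct glycoprotein, and Proser2 were higher by 1.23 ± 0.26 and 1.01 ± 0.20, without overlap on scaled signals. Mcrip2 was higher by 1.36 ± 0.28, with STAT5Δ750_254 at 177.6 inside the milk-rich range of 137.1 to 319.1. Sfxn2 was higher by 0.69 and Rad51ap1 by 0.74 with the 2 arrays beside the split exchanged. All of these had a limma adjusted p of 0.133, and all kept their sign under each alternative tried.

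**Figure D3:**
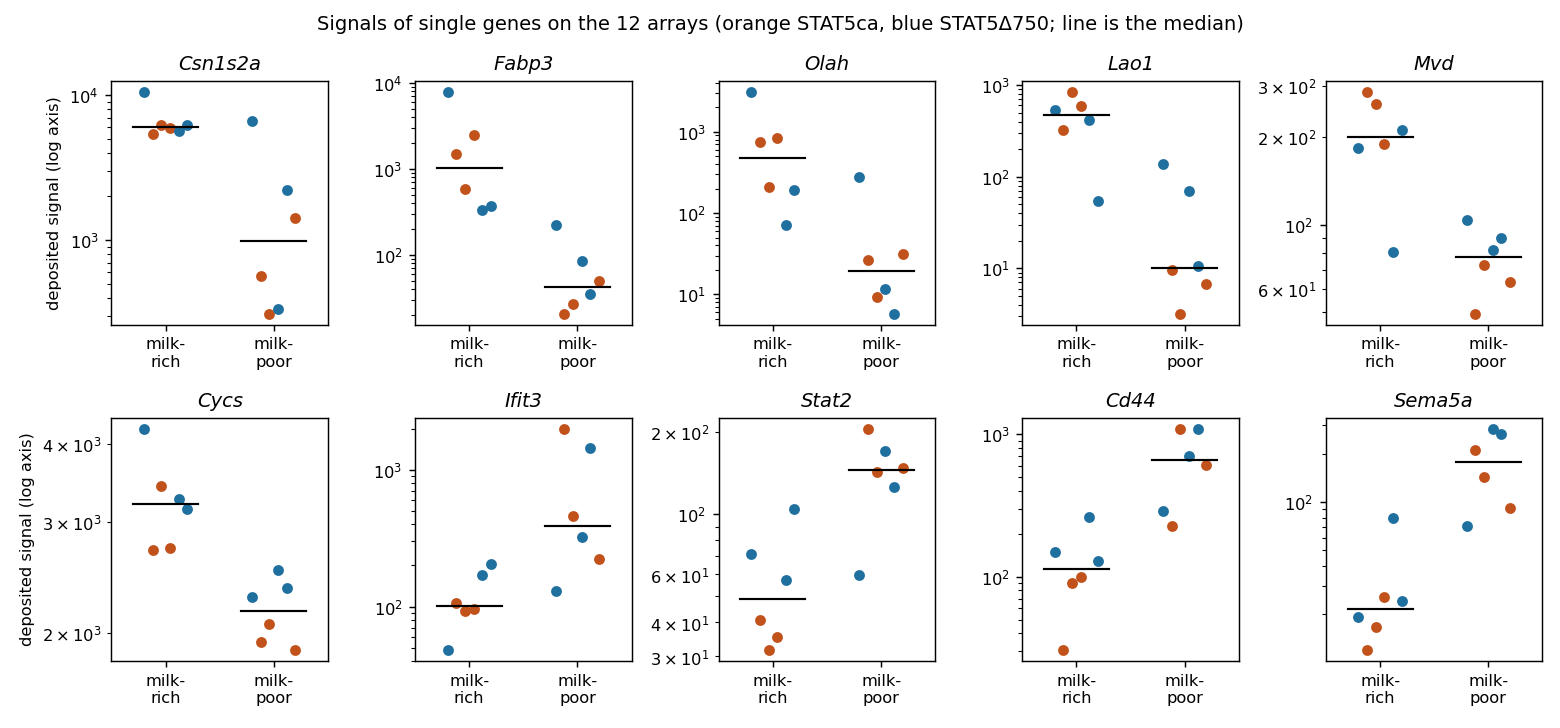
Deposited signals of 10 genes on a log axis, 1 point per tumour (6 milk-rich, 6 milk-poor; orange STAT5ca, blue STAT5Δ750), with the group median as a line. Fabp3 and Cycs separate the groups, while STAT5Δ750_254 lies with the milk-rich tumours for Csn1s2a and with the lower tumours for Ifit3 and Stat2.

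When the score was used as a continuous measure over the same 12 tumours in place of the split, 11 genes passed limma's test at an adjusted p of 0.05, 10 with a positive slope (0.115% of all genes) and 1 with a negative slope (0.0115%). Fabp3 rose by 2.08 ± 0.24 (SE) on the log2 scale per unit of score (adjusted p = 0.00715). Lao1 and Olah rose by 1.78 ± 0.27 and 1.91 ± 0.28 (SE; adjusted p = 0.0377 and 0.0357), Cidea and Lpl by 1.42 ± 0.24 and 1.15 ± 0.19 (SE; both adjusted p = 0.0382), and Mcrip2 by 0.64 ± 0.11 (SE; adjusted p = 0.0382). Aup1, a protein of lipid droplets and the endoplasmic reticulum, Reep6, which shapes the endoplasmic reticulum, Gpt2, an alanine aminotransferase of mitochondria, and Chrdl2, a secreted BMP antagonist, also passed and were named after their values were seen. Their slopes were 0.52, 1.02, 0.75 and 1.16 (adjusted p = 0.0357, 0.0382, 0.0382 and 0.0486). Rnf144a, a ubiquitin ligase, fell by 0.60 ± 0.10 (SE) per unit of score (adjusted p = 0.0467). With the transgene as a term, Fabp3 was the only gene that passed (adjusted p = 0.0142). STAT5Δ750_178, the array with the high muscle and fat gene sums, had the highest score, and without it no gene passed (0 positive, 0 negative; 1837 positive and 223 negative at unadjusted p under 0.05). The slope of Fabp3 was then 1.97 (adjusted p = 0.0654) and that of Chrdl2 0.80 in place of 1.16. Without each of the other 11 arrays in turn Fabp3 passed each time, and 1 to 9 genes had a positive slope. With the actin ratio as a term, 9 genes passed with a positive slope, among them Fabp3, Aup1 and Chrdl2 and the muscle genes Myoz1, Smpx and Hrc, and 2 with a negative slope. Lao1, Olah, Lpl and Cidea were not among them.

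The prolactin and STAT5 signalling genes were near the background. Of 16 tested, 4 were higher at unadjusted p under 0.05, against 16.4% of all genes, and 0 lower, against 2%. Their median was 0.29, which was 0.06 relative to all genes, and -0.16 when probe sets were averaged. Cish, a feedback inhibitor that STAT5 induces, was at 201.3 to 335.7 (median 308.3) against 87.1 to 282.4 (median 153.6). It overlapped between the groups, with a difference of 1.0 ± 0.28 (SE; limma adjusted p = 0.151). Elf5, the transcription factor that drives alveolar differentiation, was at 2025.5 to 4848.8 (median 3912) against 518.4 to 3815.2 (median 2309), a difference of 1.25 ± 0.48 (SE; limma adjusted p = 0.209). Pim1, a kinase induced by cytokines, was higher by 1.10 ± 0.38 (limma adjusted p = 0.187) and Akt1 by 0.41 ± 0.19 (limma adjusted p = 0.268), while the other Akt1 probe set differed by -0.28. Pim1 was higher by 0.50 with the actin ratio as a term. Socs2, another feedback inhibitor, ran from 145.1 to 2920.9 against 147.8 to 3391.7, and its difference of -0.68 ± 0.92 (limma adjusted p = 0.700) was smaller than its error.

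Stat5a differed by 0.63 ± 0.47 and Stat5b by 0.50 ± 0.33 (limma adjusted p = 0.460 and 0.403), with overlapping groups. Their probe sets read mouse sequence and the labels do not say which parts the transgenes hold, so transgene and endogenous signal cannot be told apart. A second probe set differed by -0.32 for Stat5a and -0.37 for Stat5b. Stat3, the factor of involution, differed by -0.04 ± 0.17 (limma adjusted p = 0.911), with medians of 1181 and 1314, and its other probe set by -0.99. Gata3, a luminal factor, differed by -0.23 ± 0.50 (limma adjusted p = 0.812), and Ccnd1, cyclin D1, by 0.02 ± 0.60 (limma adjusted p = 0.992), or by -0.17 on the signals as deposited. The other probe sets of Ccnd1 differed by -0.85 and -0.33. Esr1, Pgr and Tnfsf11, the oestrogen and progesterone receptors and RANK ligand, did not pass the filter on low signals, and Prlr was not analysed here.

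Epithelial identity differed little. Krt18, the partner of Krt8, was at 4829.3 to 6071.8 (median 5499) against 3974.0 to 6440.5 (median 5329), a difference of 0.24 ± 0.16 (SE; limma adjusted p = 0.427) that was -0.01 after quantile normalization and 0.09 with the 2 arrays beside the split exchanged. Of 17 luminal genes, 2 were higher at unadjusted p under 0.05, against 16.4% of all genes, and 0 lower, against 2%. The list median of 0.24 was that of all genes to within 0.01. The 2 higher genes were Ovol1 and Esrp1, an epithelial transcription factor and a splicing factor, higher by 1.06 ± 0.34 and 0.49 ± 0.21 (limma adjusted p = 0.173 and 0.243). Esrp1 was higher by 0.22 with the actin ratio as a term and by 0.32 with the 2 arrays beside the split exchanged. Of 13 basal and myoepithelial genes, 0 stood apart at unadjusted p under 0.05. Krt5 differed by -0.04 ± 0.79 and Krt14 by 0.80 ± 1.19 (SE; limma adjusted p = 0.985 and 0.727), and both varied over a wide range inside each group. Krt14 ran from 43.6 to 1390.7 in the milk-rich and from 1.3 to 2222.4 in the milk-poor tumours. The squamous list had 1 of 11 tested genes higher at unadjusted p under 0.05 and 0 lower. Its median relative to all genes was 0.38, but 0.03 with array quality weights and -0.02 without STAT5Δ750_174. Klk10, a kallikrein of the squamous list, was higher by 2.87 ± 1.02 (limma adjusted p = 0.190), at 347.0 to 3099.7 against 11.4 to 993.2, and by 1.85 with the actin ratio as a term.

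Interferon response genes stood lower in the milk-rich tumours. Of 15 tested, all had a negative difference, 9 were lower at unadjusted p under 0.05, where 2% of all genes were, and 0 were higher. The median was -1.12, which is -1.35 relative to all genes, and it was between -1.77 and -1.20 relative to all genes in the 32 alternatives that gave a value. Stat2, a transcription factor in the signal of type I interferon, was at 31.6 to 104.2 (median 49.0) against 59.7 to 205.6 (median 145.0), a difference of -1.07 ± 0.30 (SE; limma adjusted p = 0.151). The other Stat2 probe set differed by -0.51. Ifit3, an antiviral protein that interferon induces, was at 47.9 to 205.0 (median 101.7) against 129.5 to 1998.3 (median 390.7), a difference of -1.90 ± 0.63 (SE; limma adjusted p = 0.181). Both genes overlapped because STAT5Δ750_254 was the lowest milk-poor and STAT5Δ750_92 the highest milk-rich tumour. Bst2, the tether of enveloped viruses, was lower by a difference of -1.12 ± 0.37 and Ifit2 of -1.72 ± 0.61 (SE; limma adjusted p = 0.181 and 0.190). Zbp1, a nucleic acid sensor outside the list, was at 71.7 to 224.9 (median 109.6) against 198.4 to 919.3 (median 542.4), a difference of -1.70 ± 0.43 (SE; limma adjusted p = 0.138).

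The summed signal over the 15 interferon genes was 2460 to 6650 in the milk-rich tumours. Among the milk-poor tumours it was 3576 in STAT5Δ750_254 and 7188 to 20930 in the other 5. STAT5ca_169 and STAT5Δ750_160, at 19352 and 20930, were the highest. With STAT5Δ750_92 and STAT5Δ750_254 exchanged between the groups, Stat2 was lower by a difference of -1.36 with limma adjusted p = 0.0264, while over all alternatives that left out 1 array its adjusted p lay between 0.127 and 0.273. The glands had Ifit3 at 61.6 to 92.1 and Bst2 at 217.0 to 350.8, near the low end of the tumours. Immune cell markers are the values to set beside this. The 18 macrophage genes had 0 higher and 0 lower at unadjusted p under 0.05, but only 1 had a positive difference, against 72.7% of all genes. Their median was -0.52, or -0.75 relative to all genes, and -0.22 relative to them with the 2 arrays beside the split exchanged. Their summed signal was 8605 to 16549 in the milk-rich and 10127 to 25228 in the milk-poor tumours. Of 5 T and NK cell genes tested, 1 was higher and 0 lower, against 16.4% and 2% of all genes, and 1 had a positive difference. Their median was -0.41, or -0.64 relative to all genes, and 0.02 relative to them with the 2 arrays beside the split exchanged. The part of immune cells in the interferon difference was not tested.

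**Figure D4:**
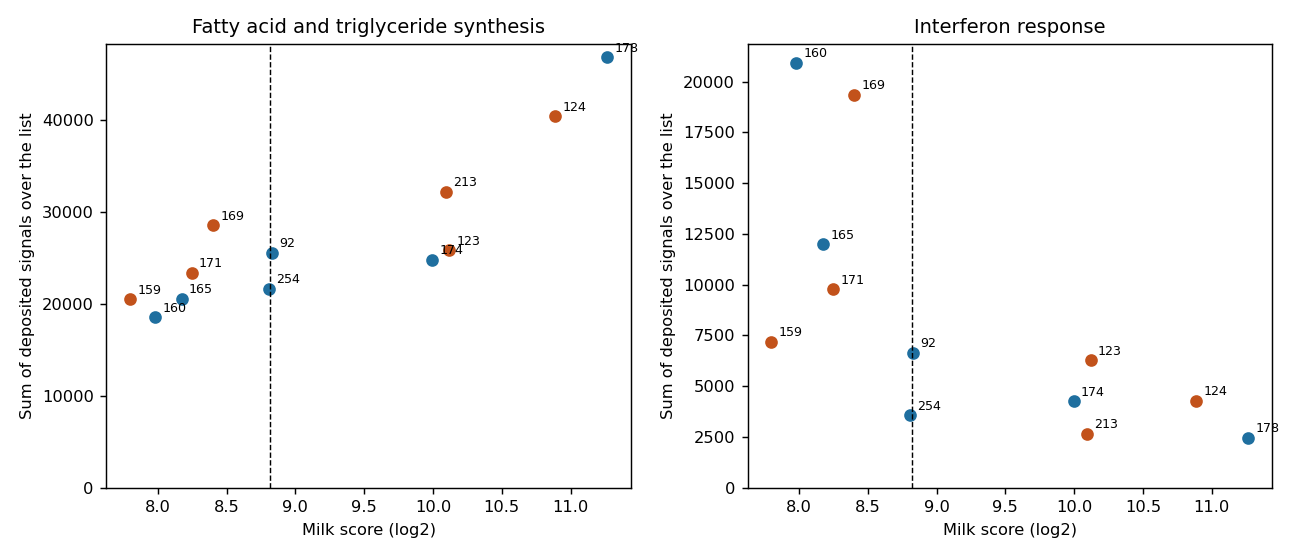
Summed deposited signals over the 24 fatty acid and triglyceride genes (left) and the 15 interferon genes (right) against the milk score of each of the 12 tumours, labelled by number (orange STAT5ca, blue STAT5Δ750; the split dashed). The interferon sum is 7188 or more in 5 milk-poor tumours, and STAT5Δ750_254, beside the split, lies with the milk-rich ones at 3576.

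Promoters of the interferon genes are shown because all 15 tested genes of the list stood on the same side. The motif searched, 2 copies of GAAA with any 2 bases between them, on either strand, is the core of the element bound by interferon-activated factors, and it was chosen after the values were seen. Of the 19 genes of the interferon list, tested or not, 15 had a promoter sequence, and these need not be the 15 tested. The motif was in 8 of these promoters, 53.3%, against 199 of 7057 tested genes, 2.82%. Ifit3, Stat2 and Bst2 are printed from RefSeq on GRCm38.p6, 5' to 3' as transcribed, with matches in capitals, which read TTTC, 2 bases and TTTC where the match is on the other strand. The windows are chr19:34583279-34583528 and chr10:128270248-128270497 on the plus strand and chr8:71537473-71537722 on the minus strand.
Ifit3: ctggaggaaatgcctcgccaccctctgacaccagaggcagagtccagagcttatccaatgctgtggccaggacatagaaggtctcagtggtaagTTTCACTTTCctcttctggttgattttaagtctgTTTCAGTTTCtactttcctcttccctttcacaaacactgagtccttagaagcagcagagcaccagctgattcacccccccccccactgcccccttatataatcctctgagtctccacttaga
Stat2: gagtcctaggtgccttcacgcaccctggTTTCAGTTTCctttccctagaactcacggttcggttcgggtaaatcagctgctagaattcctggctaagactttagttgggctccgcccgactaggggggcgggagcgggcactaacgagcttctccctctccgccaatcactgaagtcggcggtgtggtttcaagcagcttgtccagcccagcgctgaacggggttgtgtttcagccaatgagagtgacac
Bst2: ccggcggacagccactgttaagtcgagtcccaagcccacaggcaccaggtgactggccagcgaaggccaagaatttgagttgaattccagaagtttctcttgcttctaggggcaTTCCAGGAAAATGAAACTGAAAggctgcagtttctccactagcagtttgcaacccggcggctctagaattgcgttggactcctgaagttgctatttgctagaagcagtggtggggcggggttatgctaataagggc
In Ifit3 the matches start 156 and 122 bases before the gene's start and in Stat2 222 bases before it. In Bst2 the first starts 130 bases before it, and they overlap each other and a TTCNNNGAA motif at 136 bases, which is in capitals too. TTCNNNGAA was in 4 of the 15 interferon promoters, 26.7%, against 5.8% of all. The list was chosen as interferon response genes, so these shares describe the list and say nothing of the milk split. A match is a description of these windows, and binding was not measured.

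MHC class II genes were lower too, though only Cd74 at unadjusted p under 0.05, where 2% of all genes were lower. All 5 tested had a negative difference, while 72.7% of all genes had a positive one, and the median was -1.24. Cd74, the invariant chain that chaperones class II molecules, was at 254.2 to 3131.8 (median 497.1) against 1004.9 to 3041.8 (median 2286), a difference of -1.26 ± 0.54 (SE; limma adjusted p = 0.245). H2-Aa and H2-Ab1, the class II alpha and beta chains, had differences of -1.38 ± 0.66 and -1.24 ± 0.59 (limma adjusted p = 0.280 and 0.276). STAT5ca_124, a milk-rich tumour with high B cell signal, was the highest milk-rich array for all 3 genes, and these genes are expressed by B cells. Without that array and STAT5Δ750_254, the other tumour with high B cell signal, Cd74 was lower by a difference of -1.64. With the 2 arrays beside the split exchanged, Cd74 differed by -0.56, H2-Ab1 by -0.51 and H2-Aa by -0.63, and the list median relative to all genes was -0.73 in place of -1.47.

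The 12 genes of smallest p in the lower direction included several of the cell surface and matrix, and none passed the test. Cd44, the hyaluronan receptor, was at 30.4 to 263.7 (median 113.8) against 226.3 to 1088.0 (median 654.3). Its groups overlapped only through STAT5Δ750_174 at 263.7 and STAT5ca_169 at 226.3, and the difference was -2.15 ± 0.47 (SE; limma adjusted p = 0.133). With the actin ratio as a term it was -1.38. Sema5a, a semaphorin of axon guidance, was at 11.9 to 79.6 (median 21.6) against 70.7 to 286.0 (median 177.6), a difference of -2.20 ± 0.41 (SE; limma adjusted p = 0.133). Without STAT5Δ750_174, the highest milk-rich tumour for Sema5a, that difference was -2.46 (limma adjusted p = 0.0492). Sema5a passed in no other fit that left out 1 array, with limma adjusted p of up to 0.249. S100g, a calcium binding protein, was at 0.4 to 9.9 (median 1.4) in the milk-rich tumours, near the offset, and at 0.9 to 142.4 (median 56.8) in the milk-poor ones. STAT5ca_169 was the low milk-poor tumour, and without it the difference was -2.70 (limma adjusted p = 0.0228) in place of -2.19 ± 0.54 (SE; adjusted p = 0.138). That was the only fit without 1 array in which S100g passed, and its limma adjusted p rose to 0.249 in the others. S100g differed by -1.24 with the 2 arrays beside the split exchanged.

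Phyh, a peroxisomal enzyme that breaks down branched fatty acids, was the one of these 12 whose groups did not overlap, at 48.8 to 273.9 (median 152.6) against 310.8 to 672.0 (median 372.1). Its difference was -1.28 ± 0.32 (SE; limma adjusted p = 0.138), and the glands were higher still, at 925.5 to 1531.9. St3gal2, a sialyltransferase, had a difference of -1.11 ± 0.25 and Nt5e, the ectonucleotidase CD73, of -1.50 ± 0.38 (limma adjusted p = 0.133 and 0.138). St3gal2 ran from 17.7 to 36.5 against 42.2 to 106.0 as deposited, and overlapped once the arrays were scaled. Col8a1, a short-chain collagen, differed by -2.02 ± 0.51 (limma adjusted p = 0.138), and by -0.84 with the actin ratio as a term and -0.87 on its other probe set. P2ry12, a purine receptor, Rnf144a, Btbd3 and Kif3b, a kinesin, differed by -1.05, -1.25, -1.17 and -0.91 (limma adjusted p = 0.138, 0.133, 0.138 and 0.146). With the 2 arrays beside the split exchanged, Nt5e differed by -0.86 and P2ry12 by -0.68.

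Most stromal genes were lower, though few at unadjusted p under 0.05. Among 16 fibroblast and collagen genes, 1 had a positive difference, against 72.7% of all genes. Their median was -0.37, or -0.60 relative to all genes. At unadjusted p under 0.05, 0 were higher, against 16.4% of all genes, and 1 was lower, against 2%. Lum, the matrix proteoglycan lumican, was that lower gene, at 43.5 to 374.9 (median 216.3) against 318.0 to 968.4 (median 469.5), a difference of -1.30 ± 0.44 (SE; limma adjusted p = 0.187). Summed fibroblast signals were 5589 to 13376 in the milk-rich and 5776 to 22071 in the milk-poor tumours, and overlapped. Among 10 genes of mesenchymal transition, 1 had a positive difference, and the median was -0.39, or -0.62 relative to all genes. Vim, the intermediate filament vimentin, alone of these 10 stood lower at unadjusted p under 0.05, with a difference of -0.69 ± 0.27 (limma adjusted p = 0.219) and medians of 1326 and 2968. Sfrp1, a secreted Wnt antagonist, was the 1 of 12 Wnt genes that stood lower, by a difference of -1.87 ± 0.62 (limma adjusted p = 0.181), at 8.6 to 216.8 against 138.4 to 661.0. Its other probe sets differed by -1.64, -0.94 and -0.36. Cst10, of the salivary list, was at 0.3 to 5.6 against 0.2 to 7447.4, and its difference of -3.13 ± 1.42 (limma adjusted p = 0.262) was 0.11 with the 2 arrays beside the split exchanged.

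Proliferation genes were close to the background. Of 24 mitosis genes, 5 were higher at unadjusted p under 0.05, against 16.4% of all genes, and 0 lower, against 2%. Their median was 0.32, 0.09 above that of all genes. Foxm1, a transcription factor of mitotic entry, was higher by 0.64 ± 0.18, cyclin A2, Ccna2, by 0.72 ± 0.22 and the mitotic kinase Pbk by 0.56 ± 0.18 (SE; limma adjusted p = 0.146, 0.160 and 0.173). The other Ccna2 probe set was higher by 0.18. Mki67, the proliferation marker, was at 885.3 to 1828.7 (median 1346) against 567.4 to 1633.4 (median 927.5), a difference of 0.65 ± 0.26 (SE; limma adjusted p = 0.227). Its groups overlapped, and the difference was 0.28 with the actin ratio as a term and 0.33 with the 2 arrays beside the split exchanged, where Ccna2 and Pbk differed by 0.38 and 0.35. Of 23 DNA replication genes, 2 were higher and 0 lower, with a median 0.03 above that of all genes. The relative medians of both lists took either sign over the alternatives.

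Whether genes followed the score alike in the 2 transgenes was tested with a score by transgene term. No gene passed at an adjusted p of 0.05 with limma (0% of 8709), 1139 had an unadjusted p under 0.05, and the lowest adjusted p was 0.108. The median difference over all genes was 0.38 within STAT5ca and 0.09 within STAT5Δ750 tumours (3 against 3 each). On the continuous score within STAT5ca, 1324 genes had a positive and 164 a negative slope at unadjusted p under 0.05 (limma). Within STAT5Δ750 these counts were 399 and 452, so the excess of higher genes was not seen there. No gene passed adjustment within either transgene. The actin ratios of the milk-rich STAT5ca tumours, 3.72 to 5.38, did not overlap those of the milk-poor STAT5ca tumours, 1.76 to 2.53. Relative to the all-gene median within each transgene, the milk genes outside the score, fatty acid, cholesterol and transport lists lay above 0 within both. The interferon, MHC class II, macrophage, fibroblast and mesenchymal lists lay below 0 within both. The list medians that follow are not relative to all genes. The interferon list median was -1.34 within STAT5ca and -1.11 within STAT5Δ750 tumours. Muscle genes had a median of -1.07 within STAT5ca and 1.83 within STAT5Δ750, where STAT5Δ750_178 was the array with the high muscle sum, and B cell genes had 1.18 and -0.62. The basal list had 0.80 within STAT5ca and -0.83 within STAT5Δ750 tumours, with Krt14 at 2.93 and -1.32.

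**Figure D5:**
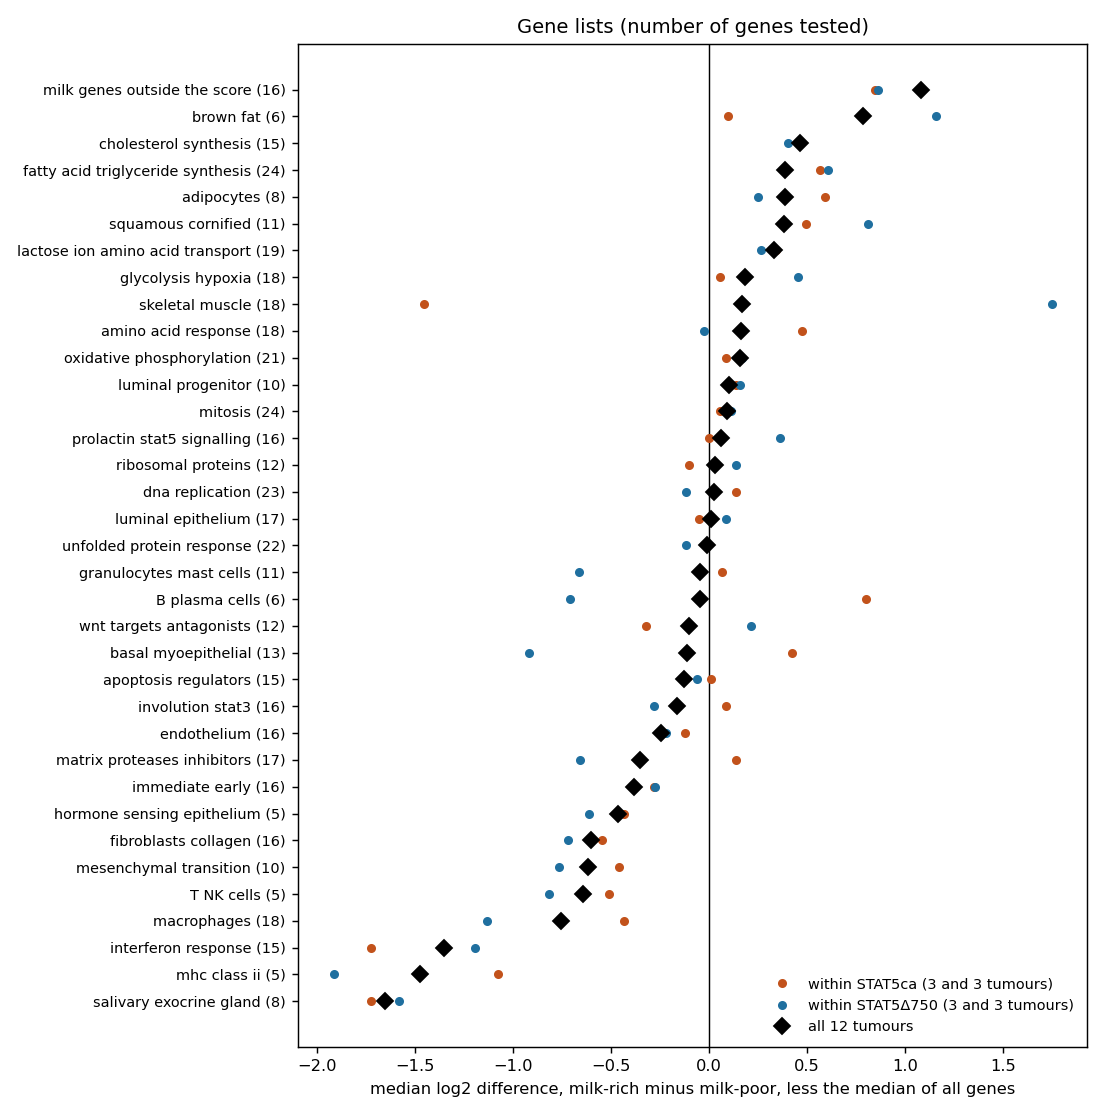
Median log2 difference, milk-rich minus milk-poor, of each of 35 gene lists, less the median of all genes in the same comparison: diamonds, all 12 tumours; orange and blue points, the 3 against 3 tumours of STAT5ca and of STAT5Δ750. Milk genes lie highest at 1.08. The salivary list lies lowest at -1.65, followed by MHC class II at -1.47 and interferon genes at -1.35. The skeletal muscle, B cell and basal lists take opposite sides in the 2 transgenes.

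The remaining lists held few genes apart at unadjusted p under 0.05, where 16.4% of all genes were higher and 2% lower. None was in that range among 16 endothelial, 6 B cell, 5 hormone-sensing, 18 skeletal muscle, 17 matrix protease and inhibitor, 16 involution, 15 apoptosis, 16 immediate early and 12 ribosomal protein genes. Of 10 luminal progenitor genes, 1 was higher and 0 lower. Of 11 granulocyte and mast cell genes, 1 was higher and 0 lower. Of 22 unfolded protein response genes, 1 was higher and 1 lower, and their median was that of all genes to within 0.01. Immediate early genes, which tissue handling can induce, had a median of -0.15, or -0.38 relative to all genes. Of the lists in this paragraph, the hormone-sensing list stood lowest relative to all genes, at -0.46, and the skeletal muscle list highest, at 0.17. The matrix protease and inhibitor list stood at -0.35.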

How the data were processed

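Each deposited table held the authors' MAS5 signals, an intensity on a linear scale for each of 22690 probe sets per array. MAS5 is named in the submitters' processing notes, and its version is not given in the sources used here. On every array the deposited mean without the lowest and highest 2% was about 250.1, while array medians ran from 57.3 to 90.7, so each array was scaled to a common median of 75.9. Scaled signals were taken as log2(signal + 7.9). A probe set was kept if above 35.4 on at least 3 of the 12 arrays, and the brightest of 1 symbol stood for a gene (8709 genes). Probe sets with several symbols (691) or none (1606) were not named.

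Groups were compared with limma 3.58.1 (R 4.3.3; 10 residual degrees of freedom), two-sided, with Benjamini-Hochberg adjustment over all genes. The fit was also run on simulated data with added differences, and its outcome is not reported here. Those values were drawn independently, without RNA quality or tissue effects shared across genes, so that run cannot show how the fit handles such effects. Array measures had exact permutation tests. Differences are milk-rich minus milk-poor, and they understate change near the offset. Named were the 12 genes of smallest p in each direction, up to 4 members of each list by p, and a set of milk, STAT5 and epithelial genes. The tumours, the genes and the 35 lists were chosen with earlier results of these data known. Of the named genes, 64 had several probe sets, 12 of them with one of opposite sign. The labels give no batch or date. The closing section gives the alternatives. The number of arrays limits the precision.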

Additional observations from a re-analysis of the deposited data

Results flagged for a closer look

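Over both groups of 6 arrays together, 11 of 192 sets of values held 1 array far from the other 5 by Dixon's ratio of gap to range, which chance gives in about 1 in 20 sets. The Gapdh 3' to 5' ratio of STAT5ca_124 was 1.71, against 0.789 to 1.08 in the other milk-rich arrays. The remaining 10 are log2 levels of scaled signals. Among milk-rich tumours, Lao1 was 6.02 in STAT5Δ750_92 (others 8.59 to 10.10) and Aldh18a1 9.39 in STAT5Δ750_174 (others 10.69 to 11.10). Iars was 10.63 in STAT5ca_123 (others 9.49 to 9.91), and H2-Ab1 was 10.75 in STAT5ca_124 (others 7.26 to 8.41). Among milk-poor tumours, STAT5ca_169 was low for Csn2, at 9.89 (others 12.10 to 12.96), and for Ndrg1, at 8.33 (others 10.38 to 10.92). STAT5Δ750_160 was low for Gata3, at 4.68 (others 6.65 to 7.69), and for Ccna2, at 8.57 (others 9.13 to 9.32). STAT5ca_171 was low for Vegfa, at 6.54 (others 8.16 to 8.62). Olah was high in STAT5Δ750_254, at 8.06 (others 3.79 to 5.20), the milk-poor tumour next to the split.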

How the results depend on the processing

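The count of genes past an adjusted p of 0.05 (limma), 0 higher and 0 lower, was also 0 and 0 with deposited, quantile-normalized or median-centred signals, other offsets and filters, averaged probe sets, trend and robust or weighted fits, and the transgene, actin or Gapdh ratio as a term. The score as a continuous measure gave 10 and 1, with the transgene 1 and 0, and with the actin ratio 9 and 2. Within STAT5ca alone and within STAT5Δ750 alone it gave 0 and 0. The 4 highest against the 4 lowest gave 5 and 0. Leaving out 1 array gave 0 to 4 higher and 0 to 1 lower, with 4 and 1 without STAT5Δ750_174 and 0 and 1 without STAT5ca_169. With the continuous score it gave 0 to 9 and 0 to 1, with 0 without STAT5Δ750_178 and 6 higher without STAT5ca_123. Of the alternatives chosen after seeing the data, leaving out the 2 arrays beside the split gave 1 and 0, and exchanging them 1 and 2. The score by transgene term gave 0 on deposited signals and with the groups in place of the score. No paired analysis was possible because the groups share no replicate numbers. At unadjusted p under 0.05, 426 genes were higher and 245 lower with the actin ratio as a term, and 378 and 138 without the 3 arrays of highest actin ratio.

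Of 4401 gene values under alternatives, 57 had the other sign, all in Ccnd1, Krt5, Krt14, Krt18, Stat3, Gata3, Socs2, H2-Ab1 and Cst10. Ccnd1 was -0.17 as deposited, -0.16 after quantile normalization, -0.0021 when centred on the median log2 value, -0.39 with averaged probe sets, -0.83 with the actin ratio and -0.31 with the Gapdh ratio as a term. It was -0.15 for the 4 highest against the 4 lowest, -0.14 without STAT5ca_124 and STAT5Δ750_254, -0.41 for the 5 highest against the 7 lowest, -0.15 without the 2 arrays beside the split and -0.27 with them exchanged. Without 1 array it was between -0.23 and 0.46, and per unit of score, with a slope of -0.09 in all 12 tumours, between -0.29 and 0.051, with 0.035 without STAT5Δ750_178. Krt5 was 0.35 with the actin and 0.036 with the Gapdh ratio, 0.17 per unit of score within STAT5ca, 0.43 for the 5 highest against the 7 lowest, 0.072 without the 2 arrays beside the split, 0.16 with them exchanged and 0.032 without the 3 arrays of highest actin ratio. Without 1 array it was between -0.51 and 0.54, and per unit of score between -0.26 and 0.14. Krt14 was -0.011 with the actin and -0.24 with the Gapdh ratio, -0.71 for the 4 highest against the 4 lowest and -0.18 without the 3 arrays of highest actin ratio. Its slope on the score was -1.0 within STAT5Δ750 and -0.28 with the actin ratio. Without 1 array Krt14 was between -0.12 and 1.47, and per unit of score between -0.27 and 0.61, with -0.22 without STAT5ca_169 and -0.012 without STAT5Δ750_174. Krt18 was -0.011 after quantile normalization, -0.0042 per unit of score within STAT5Δ750 and -0.033 with the actin ratio. Stat3 was 0.030 with array weights, 0.056 with the Gapdh ratio and between -0.10 and 0.041 without 1 array. Gata3 was 0.078 with the Gapdh ratio, 0.31 per unit of score within STAT5Δ750, 0.18 without the 3 arrays of highest actin ratio and between -0.66 and 0.021 without 1 array. Per unit of score within STAT5ca, Socs2 was 0.034 and H2-Ab1 0.14. Cst10 was 0.11 with the 2 arrays beside the split exchanged. The cause of these turns was not tested.

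Of 1120 list medians relative to all genes, 11 moved by more than the spread between arrays. They include the brown fat list (1.98 with the stricter filter, and 0.16 at its lowest, with array weights) and the skeletal muscle list (2.30 with the actin ratio as a term). With the 2 arrays beside the split exchanged, the B cell list stood at 1.72 in place of -0.04 and the salivary list at 0.94 in place of -1.65. MAS5 signals near the offset of 7.9 carry little information on change.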
